A study of Mus musculus with 16 samples.

Results

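The 9 genes Tjp1, Tjp3, Ocln, Marveld2, F11r, Cgn, Pard3, Prkci and Crb3, which encode scaffold, membrane and polarity proteins of the epithelial tight junction, were taken by gene name from a table of 54532 genes, and all 9 were found and passed the filter on low counts in every comparison. They were read in 16 bulk mRNA libraries of mouse jejunal enteroids, which are epithelial cultures grown from intestinal crypts, with 4 cultures in each of 4 groups. By the study's methods, the cultures came from adult mice that carry Vil1-CreERT2, a Cre recombinase driven by the villin promoter of the intestinal epithelium and switched on by 4-OH-tamoxifen, and all were kept in differentiation medium with Noggin and R-spondin before harvest. The study asked what loss of the motor protein MYO5B does within the epithelium, and whether Compound-1, an agonist of the lysophosphatidic acid receptor LPAR5, changes it.

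The control group is labelled only as control, with no treatment recorded; the study's methods give Myo5b flox/flox for control enteroids, while another passage of the study calls the controls healthy littermates, so their genotype is not settled here. The MYO5BΔIEC group (iKO in the labels) carried Myo5b flox/flox and received 1 µM 4-OH-tamoxifen for 24 h in growth medium, which deletes the floxed alleles, followed by vehicle (PBS) for 2 days. The MYO5B(G519R) group carried 1 floxed allele and 1 allele with the G519R change and received the same 4-OH-tamoxifen. The Compound-1 group consisted of MYO5BΔIEC enteroids that received Compound-1 at 100 nM over those 2 days in place of vehicle. The study's methods give vehicle (EtOH) in place of 4-OH-tamoxifen to uninduced cultures, so exposure to 4-OH-tamoxifen and loss of MYO5B, and any difference in the controls' genotype, cannot be told apart in any comparison with control. The text of the study describes the 4 cultures of a group as coming from separate mice, while the labels number them only as replicates, and the p-values measure the spread between these cultures.

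Tight junctions seal the space between neighbouring epithelial cells near their apical border. Membrane proteins such as occludin, tricellulin and junctional adhesion molecule A are tied to the actin cytoskeleton by plaque scaffolds, chiefly the zonula occludens proteins and cingulin. The PAR complex (PAR-3, PAR-6 and atypical protein kinase C) and the Crumbs complex mark the apical side and position the junction, and the Scribble group marks the basolateral side.

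Total counts ranged from 27804968 to 40101729 per library. Levels are given as CPM, the count scaled to library size after TMM, a correction for library composition, and as the authors' FPKM, which also divides by gene length. Fold changes are from edgeR on the counts, with p-values adjusted over all genes tested, and a gene is said to have risen or fallen only where the adjusted p was under 0.05. Groups are said not to overlap where every culture of one lay above every culture of the other.

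Myo5b itself was checked first. Its level was 160, 229.6, 191 and 176 CPM in controls 1 to 4, and 135, 109, 170 and 101 CPM in MYO5BΔIEC cultures 1 to 4. It was 139, 153, 173 and 136 CPM in MYO5B(G519R) cultures 1 to 4, and 149, 106.0, 87.2 and 101 CPM in those with Compound-1. The MYO5BΔIEC and MYO5B(G519R) cultures overlapped the controls, and the Compound-1 cultures all lay below them. By edgeR its log2 fold change was -0.55 (adjusted p = 0.0503, SE 0.19) in MYO5BΔIEC, -0.33 (SE 0.14, adjusted p = 0.109) in MYO5B(G519R) and -0.77 (SE 0.19, adjusted p = 0.0146) with Compound-1, each against control. Without control 1 it was -0.63 (adjusted p = 0.0155) in MYO5BΔIEC and -0.37 (adjusted p = 0.0286) in MYO5B(G519R), both past the threshold, and in MYO5BΔIEC it also passed without culture 3 of that group (adjusted p = 0.0203). The count covers the whole gene, so reads of a transcript that lacks only the deleted part, or of the G519R allele, are included. How completely the floxed alleles were deleted was not tested.

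One control library stood apart from the others. Control 1 had a median correlation of log2 CPM of 0.943 with the other controls, against 0.987 to 0.989 for controls 2 to 4. Its enterocyte markers summed to 3450.4 CPM against 13061 to 16304 CPM in the other 3, and its mitochondrial share of counts was 6.41% against 9.07% to 10.4%. That share was also low in the 12 cultures of the MYO5B groups, at 3.79% to 6.63%, so it moved with every comparison with control. When library size was computed without mitochondrial genes, edgeR called 3, 4 and 6 members in MYO5BΔIEC, MYO5B(G519R) and Compound-1 cultures against control. The share of all genes called in these fits is not given here, so the 3 counts have no background to be read against. The part of RNA quality in the results was otherwise not tested. The levels of Tjp1, Marveld2, F11r, Pard3 and Prkci in control 1 were the highest of the 4 controls and those of Tjp3, Cgn and Crb3 the lowest. The members, Myo5b and the paralogs named are therefore given against control with and without control 1 where the call differs.

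The 250 bases before the RefSeq start of 4 members are shown, those of the 3 genes that rose in both models (Tjp1, Cgn and F11r) and of Crb3, the member with the most copies of the first motif at its first listed start. All are from GRCm38.p6, 5′ to 3′ on the gene's strand, in lower case, with matches to CACCTG (the E-box that SNAI and ZEB factors bind) or AACCGG (the core of a Grainyhead-like site), on either strand, in capitals. The reverse complements searched were CAGGTG and CCGGTT, and no match of one motif overlapped a match of the other.
Tjp1, chr7:65371245-65371494, minus strand: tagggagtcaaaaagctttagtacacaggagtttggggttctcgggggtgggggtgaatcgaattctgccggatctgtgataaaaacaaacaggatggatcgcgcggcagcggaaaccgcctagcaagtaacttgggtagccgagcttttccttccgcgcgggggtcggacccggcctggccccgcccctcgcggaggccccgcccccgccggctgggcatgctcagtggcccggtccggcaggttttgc
Cgn, chr3:94786483-94786732, minus strand: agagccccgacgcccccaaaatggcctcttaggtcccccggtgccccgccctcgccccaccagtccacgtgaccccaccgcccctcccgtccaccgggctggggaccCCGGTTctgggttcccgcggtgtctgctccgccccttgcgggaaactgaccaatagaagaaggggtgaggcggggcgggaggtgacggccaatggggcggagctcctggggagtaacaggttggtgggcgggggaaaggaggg
F11r, chr1:171437311-171437560, plus strand: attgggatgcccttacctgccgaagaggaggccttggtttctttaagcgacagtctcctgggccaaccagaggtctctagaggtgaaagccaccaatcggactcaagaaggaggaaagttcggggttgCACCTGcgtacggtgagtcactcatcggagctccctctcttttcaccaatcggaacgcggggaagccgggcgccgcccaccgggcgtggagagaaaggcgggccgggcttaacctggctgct
Crb3, chr17:57061951-57062200, plus strand: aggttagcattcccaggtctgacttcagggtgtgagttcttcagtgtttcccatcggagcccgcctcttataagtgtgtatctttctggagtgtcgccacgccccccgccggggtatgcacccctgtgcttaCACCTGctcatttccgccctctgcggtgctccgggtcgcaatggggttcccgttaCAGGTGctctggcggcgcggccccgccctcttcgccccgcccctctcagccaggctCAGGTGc

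All 9 members had a RefSeq start, with 14 windows in all, since 5 genes had a pair of listed starts, and the windows of one gene are not independent. CACCTG was found for 5 of 9 members (F11r, Pard3, Tjp3, Ocln and Crb3), in 7 of the 14 windows, and 17.2% of all 32851 windows of this length held it. AACCGG was found for 2 of 9 members (Cgn and Ocln), in 2 of the 14 windows, against 5.62% of all windows. Neither motif was in the windows of Tjp1, Prkci or Marveld2. The 3 CACCTG matches of Crb3 began 118, 63 and 7 bases before its first start, and the single match of F11r 122 bases before its start. The Tjp1 start used here lay 156.5 kb inside the gene as the count table draws it, so other annotated starts of Tjp1 lie upstream of the window shown. The first Crb3 start lay 3.1 kb inside its gene. All matches of Pard3 came before its second listed start, 235.7 kb inside the gene, and none before its first. A match describes the letters of the window and is not a measurement of binding.

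By length-corrected level, the members ranged widely in control enteroids. F11r had a mean of 48.3 FPKM (SD 9.82, n = 4) and Tjp3 44.8 FPKM (SD 2.48), with overlapping ranges, followed by Ocln at 37.1 FPKM (SD 1.42) and Crb3 at 29.8 FPKM (SD 6.77). Prkci at 16.6 FPKM, Cgn at 15.7 FPKM and Tjp1 at 12.8 FPKM each overlapped the next in the order, Marveld2 followed at 9.48 FPKM (SD 1.14), and Pard3 was lowest at 3.28 FPKM (SD 0.975), below Marveld2 in every control. F11r and Tjp3 led the order in all 4 groups, and Marveld2 and Pard3 closed it. Cgn held rank 6 among the members in controls and rank 4 in MYO5BΔIEC enteroids, where its mean of 32.8 FPKM (SD 5.21) overlapped the ranges of Ocln above it and Crb3 below it.

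In MYO5BΔIEC enteroids the plaque scaffolds Tjp1 and Cgn were about 2-fold higher than in control and the adhesion molecule F11r 1.66-fold higher, while Ocln and Crb3 stayed within the range of the controls on average. In MYO5B(G519R) enteroids the same 3 genes rose, and Tjp3 with them. Of the 9 members, 3 rose and 0 fell in MYO5BΔIEC, where 13.5% of all genes tested rose and 13.8% fell by edgeR, and 4 rose and 0 fell in MYO5B(G519R), where 13.1% rose and 13.7% fell. The median log2 fold change of the members was 0.44 and 0.41, beside -0.01 and -0.05 over all genes tested. Against the same controls, the Compound-1 cultures had 6 members higher and 0 lower (15.7% and 13.7% of all genes), with a median of 0.63 beside -0.05. These comparisons share the 4 control cultures. In bulk samples, a change in the number of cells of a type and a change in RNA per cell cannot be told apart.

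**Figure D1:**
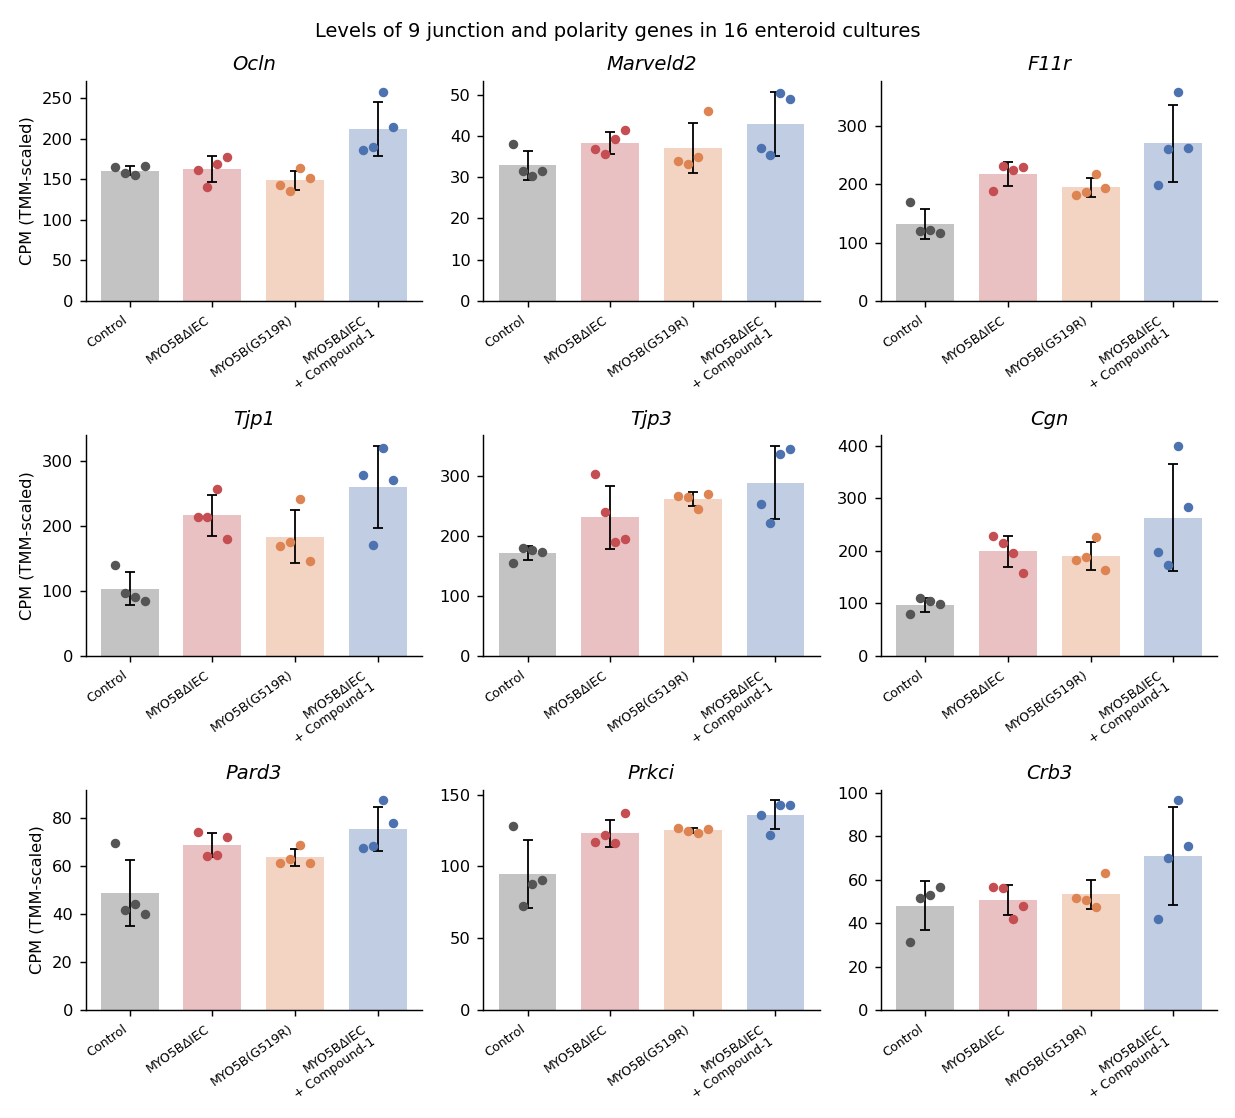
Level of each of the 9 genes in CPM after TMM scaling (vertical axes, each from 0) in the 4 groups; points are single cultures, bars the mean and error bars the SD over 4 cultures. Tjp1, Tjp3, F11r and Cgn lay above every control in both MYO5B models, while Ocln, Marveld2, Pard3, Prkci and Crb3 overlapped the controls there.

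Among the membrane proteins, Ocln encodes occludin. Its level was 165, 158, 155 and 166 CPM in controls 1 to 4 and 161, 140.2, 169 and 178 CPM in MYO5BΔIEC cultures 1 to 4. It was 143, 136, 164 and 151 CPM in MYO5B(G519R) cultures and 186, 190.1, 258 and 215 CPM in Compound-1 cultures. The first 3 groups overlapped, and all 4 Compound-1 cultures lay above every culture of the other groups. The log2 fold change against control was 0.02 (SE 0.12, 95% interval -0.25 to 0.29, adjusted p = 0.934 by edgeR) in MYO5BΔIEC and -0.11 (SE 0.1, interval -0.34 to 0.11, adjusted p = 0.441) in MYO5B(G519R). Against MYO5BΔIEC, the Compound-1 cultures differed by 0.36 (SE 0.14, interval 0.05 to 0.67) with an adjusted p of 0.612, and against control by 0.40 (SE 0.15) with an adjusted p of 0.0617 by edgeR and 0.029 by DESeq2. The difference from control passed the edgeR test without control 1 (0.44, adjusted p = 0.0334) and without Compound-1 culture 2 (adjusted p = 0.048).

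Marveld2 encodes tricellulin, which seals the points where 3 cells meet, and lies on chromosome 13, 43.2 kb from Ocln. Its level was 38.1, 31.4, 30.4 and 31.6 CPM in controls and 36.9, 35.5, 39.3 and 41.4 CPM in MYO5BΔIEC cultures. It was 33.8, 33.3, 34.8 and 46.0 CPM in MYO5B(G519R) and 37.0, 35.3, 50.3 and 49.0 CPM with Compound-1. Control 1 lay within the MYO5BΔIEC range, and the other 3 controls lay below all MYO5BΔIEC cultures. The log2 fold change in MYO5BΔIEC was 0.22 (SE 0.13, adjusted p = 0.217 by edgeR), and 0.30 with an adjusted p of 0.0486 without control 1. In MYO5B(G519R) it was 0.17 (SE 0.14, adjusted p = 0.404). With Compound-1 it was 0.38 (adjusted p = 0.1), and 0.49 with an adjusted p of 0.0302 without control 1.

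F11r encodes junctional adhesion molecule A, an immunoglobulin-type receptor that recruits PAR-3 to young junctions. Its level was 169, 119, 122 and 117 CPM in controls and 188, 231, 224 and 229 CPM in MYO5BΔIEC cultures. It was 182, 187, 218 and 193 CPM in MYO5B(G519R) and 199.5, 259.8, 359 and 263 CPM with Compound-1. Control 1 was the highest control, and it still lay below every culture of the other 3 groups. F11r rose by 0.73 on the log2 scale (adjusted p = 0.0073 by edgeR, SE 0.16) in MYO5BΔIEC, by 0.56 (SE 0.14, adjusted p = 0.0179) in MYO5B(G519R) and by 1.03 (SE 0.2, adjusted p = 0.00676) in the Compound-1 group, each against control. The call in MYO5B(G519R) was lost without control 2, 3 or 4 or without MYO5B(G519R) culture 3, with adjusted p between 0.051 and 0.0598.

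Among the plaque scaffolds, Tjp1 encodes ZO-1, which links membrane proteins to actin. Its level was 140.5, 96.7, 89.9 and 84.4 CPM in controls and 215, 214, 257 and 179.8 CPM in MYO5BΔIEC cultures. It was 169.8, 176, 241 and 146 CPM in MYO5B(G519R) and 279, 171, 320.0 and 271 CPM with Compound-1. All 12 cultures of the 3 MYO5B groups lay above the highest control, which was control 1. Tjp1 rose by 1.08 (SE 0.19, adjusted p = 0.00315), 0.83 (SE 0.2, adjusted p = 0.0145) and 1.34 (SE 0.23, adjusted p = 0.00466) (log2, edgeR) in the MYO5BΔIEC, MYO5B(G519R) and Compound-1 groups against control, and without control 1 the same values were 1.26, 1.05 and 1.55.

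Cgn encodes cingulin, which binds ZO-1 and ties the plaque to myosin and microtubules. Its level was 78.2, 109.6, 103 and 97.2 CPM in controls and 227, 214, 195 and 158 CPM in MYO5BΔIEC cultures. It was 181, 187, 226 and 162 CPM in MYO5B(G519R) and 196, 173, 399 and 283 CPM with Compound-1. Here control 1 was the lowest control, and no control overlapped any other group. Against control, Cgn rose by 1.04 (adjusted p = 0.00231 by edgeR, SE 0.16) in MYO5BΔIEC, 0.96 (SE 0.14, adjusted p = 0.00263) in MYO5B(G519R) and 1.44 (SE 0.26, adjusted p = 0.00521) with Compound-1.

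Tjp3 encodes ZO-3, a scaffold related to ZO-1 that is largely found in epithelia. Its level was 155, 179, 177 and 174 CPM in controls and 302, 239, 189.0 and 194 CPM in MYO5BΔIEC cultures. It was 267, 265, 245 and 270.3 CPM in MYO5B(G519R) and 252, 222, 336 and 345 CPM with Compound-1. MYO5BΔIEC cultures 3 and 4 lay just above the controls and cultures 1 and 2 well above, whereas the MYO5B(G519R) cultures lay close together. Tjp3 rose by 0.61 (SE 0.1, edgeR adjusted p = 0.00371) in MYO5B(G519R) and by 0.76 (SE 0.17, adjusted p = 0.0108) with Compound-1. In MYO5BΔIEC the log2 fold change was 0.44 (SE 0.17) with an adjusted p of 0.0775 by edgeR and 0.0446 by DESeq2. The difference between the models was 0.18 (SE 0.15, adjusted p = 0.838), and a difference between the models was thus not resolved. Tjp3 overlaps Apba3 on the opposite strand, whose counts were 14.2% of those of Tjp3, and whether counting used strand is not given in the sources used here.

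Among the polarity genes, Pard3 encodes PAR-3, which places the PAR complex at the junction. Its level was 69.3, 41.7, 43.9 and 40.0 CPM in controls and 73.8, 64.1, 64.4 and 72 CPM in MYO5BΔIEC cultures. It was 61.1, 62.8, 68.7 and 61.2 CPM in MYO5B(G519R) and 67.5, 68.3, 87.1 and 77.7 CPM with Compound-1. Controls 2 to 4 lay below all 12 other cultures, and control 1 lay among them. The log2 fold change was 0.50 (SE 0.18, adjusted p = 0.0622 by edgeR) in MYO5BΔIEC and 0.38 (SE 0.17, adjusted p = 0.135) in MYO5B(G519R), and without control 1 it was 0.72 (adjusted p = 0.000454) and 0.63 (adjusted p = 0.000226). It rose by 0.63 (SE 0.19, adjusted p = 0.0348) with Compound-1, a call lost without any one of controls 2, 3 and 4 or Compound-1 cultures 3 and 4.

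Prkci encodes atypical protein kinase C iota, the kinase of the PAR complex. Its level was 128, 72.2, 87.5 and 90.4 CPM in controls and 117, 122, 116 and 137 CPM in MYO5BΔIEC cultures. It was 127, 125, 123 and 126 CPM in MYO5B(G519R) and 136, 122, 143 and 143 CPM with Compound-1. As for Pard3, control 1 lay among the MYO5B cultures and the other 3 controls below all of them. By edgeR it differed by 0.39 (adjusted p = 0.118, SE 0.17) from control in MYO5BΔIEC and by 0.41 (SE 0.16, adjusted p = 0.0894) in MYO5B(G519R), and 0.57 (adjusted p = 0.00292) and 0.62 (adjusted p = 0.000416) without control 1. With Compound-1 it rose by 0.52 (SE 0.18, adjusted p = 0.0492), a call lost without any one of controls 2, 3 and 4 or Compound-1 cultures 1, 3 and 4, and without the filter on low counts.

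Crb3 encodes Crumbs-3, the apical membrane protein of the Crumbs complex. Its level was 31.3, 51.4, 52.8 and 56.5 CPM in controls and 56.8, 56.0, 42.0 and 48.1 CPM in MYO5BΔIEC cultures. It was 51.4, 50.8, 47.5 and 63.2 CPM in MYO5B(G519R) and 41.9, 69.8, 96.5 and 75.4 CPM with Compound-1. Control 1 was the lowest of all 16 cultures, and every group overlapped the controls. The Compound-1 cultures were at 0.56 (SE 0.26, interval -0.01 to 1.13, adjusted p = 0.123 by edgeR) against control, and without Compound-1 culture 1 the difference passed (0.75, adjusted p = 0.0351). The log2 fold change was 0.09 (SE 0.19, interval -0.34 to 0.52, adjusted p = 0.778) in MYO5BΔIEC, where it was -0.07 without control 1, and 0.15 (SE 0.18, interval -0.26 to 0.56, adjusted p = 0.586) in MYO5B(G519R). Crb3 overlaps Dennd1c and Slc25a23 on the opposite strand, whose counts were 20.9% and 32.3% of those of Crb3, so its counts are uncertain.

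**Figure D2:**
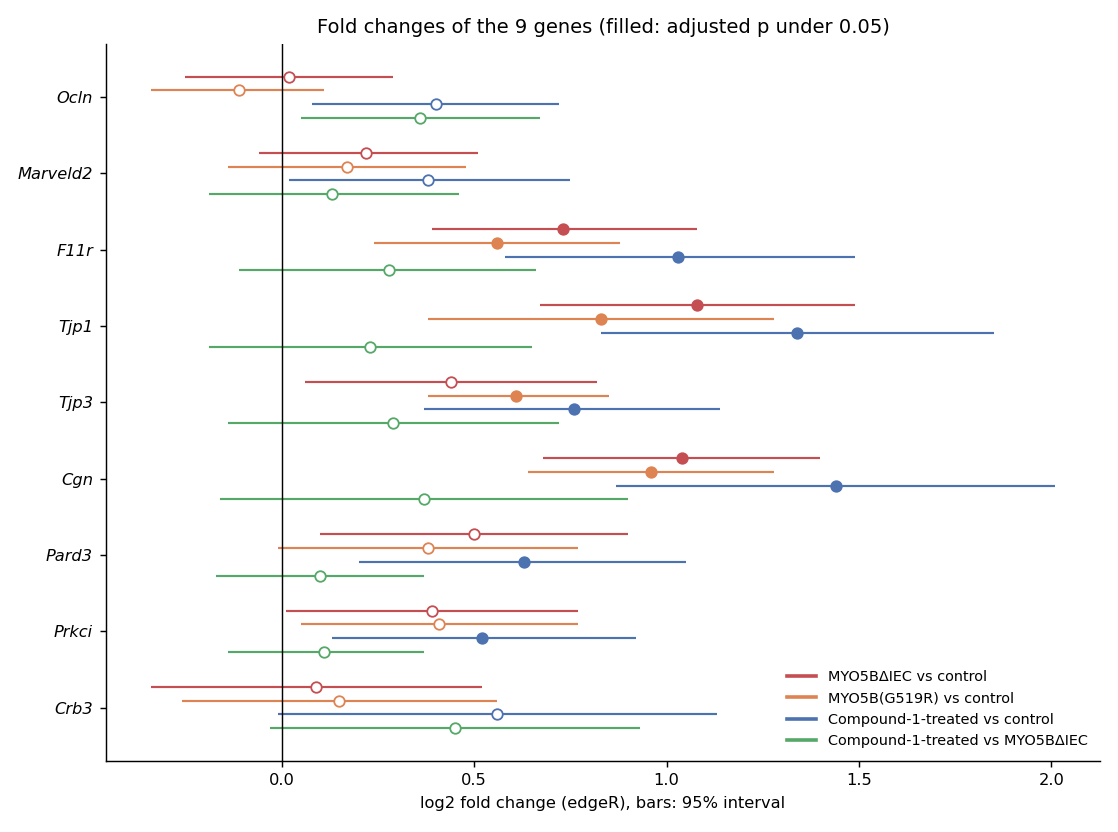
Log2 fold change by edgeR (horizontal axis) of each gene in 4 comparisons, with 95% intervals; filled points passed an adjusted p of 0.05. Tjp1, Cgn and F11r are filled in the 3 comparisons with control, and all 9 points of Compound-1-treated against MYO5BΔIEC enteroids are open and between 0.1 and 0.45.

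No overlap with control, all cultures higher, was seen for 4 members (Tjp1, Tjp3, F11r and Cgn) in both models and for these and Ocln in the Compound-1 group, while the share of all genes with this pattern was 13% in MYO5BΔIEC, 13.6% in MYO5B(G519R) and 14.3% with Compound-1. Without control 1, edgeR called 6 members higher in MYO5BΔIEC, 6 in MYO5B(G519R) and 8 with Compound-1, while the share of all genes called higher grew to 21.2%, 24.0% and 22.9%. Longer genes had higher fold changes in all 3 comparisons with control, with Spearman's rho across genes of 0.286, 0.294 and 0.276, and the members' exon lengths ran from 1564 bases for Crb3 to 14506 bases for Pard3. With the length trend removed, Tjp1 kept a log2 fold change of 0.91, Cgn 0.90 and F11r 0.83 in MYO5BΔIEC, all past the threshold, while Pard3 was at 0.21 (adjusted p = 0.291) and Crb3 at 0.43 (adjusted p = 0.0391 by edgeR). In MYO5B(G519R), Crb3 was then at 0.44 with an adjusted p of 0.0187, and with Compound-1 at 0.90 with an adjusted p of 0.0148, whereas Pard3 and Prkci lost their calls there (adjusted p = 0.0925 and 0.0641). The part of length in these results was otherwise not tested.

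Because the scaffolds rose while occludin did not pass the test, their counts were set against those of Ocln in the same culture, a ratio that is free of library size. The ratios were chosen after the values were seen and are a description. The mean log2 ratio of Tjp1 over Ocln was -0.67 (SD 0.32, n = 4) in controls, 0.41 (SD 0.28) in MYO5BΔIEC, 0.28 (SD 0.26) in MYO5B(G519R) and 0.27 (SD 0.31) with Compound-1. That of Cgn over Ocln was -0.74 (SD 0.25), 0.28 (SD 0.35), 0.34 (SD 0.17) and 0.24 (SD 0.34) in the same order, and that of F11r over Ocln was -0.30 (SD 0.24), 0.43 (SD 0.21), 0.39 (SD 0.06) and 0.33 (SD 0.17). For these 3 ratios no culture of the MYO5B groups fell within the control range. The 3 MYO5B groups overlapped each other in each of the 3 ratios. Tjp3 over Ocln had a mean of 0.09 (SD 0.13) in controls, 0.49 (SD 0.4) in MYO5BΔIEC, where cultures 3 and 4 fell within the control range, and 0.82 (SD 0.17) in MYO5B(G519R).

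**Figure D3:**
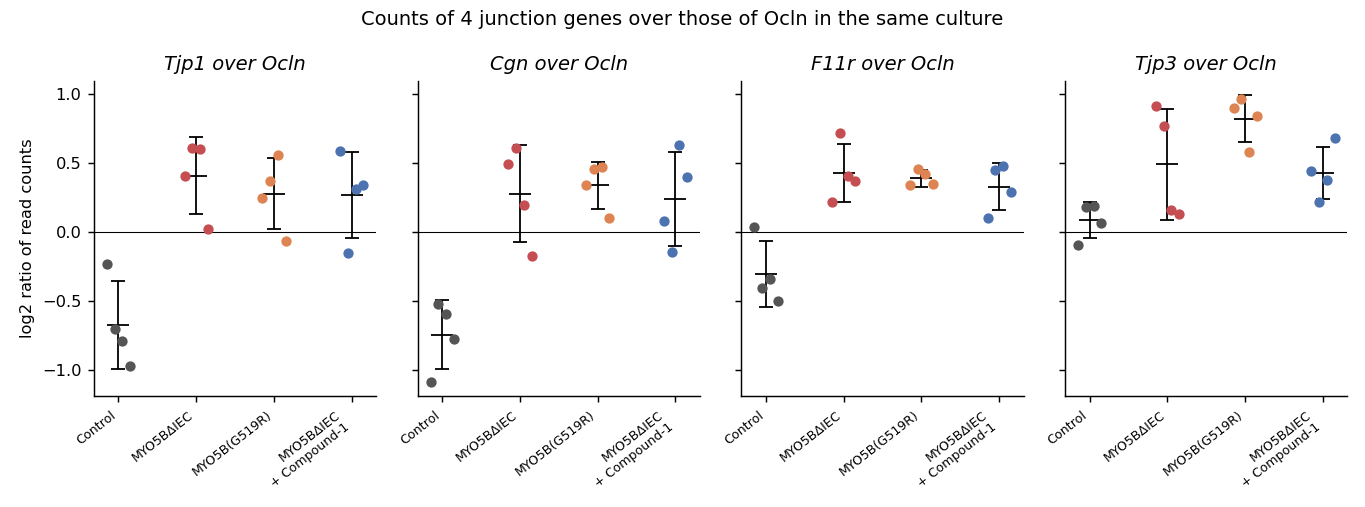
Log2 ratio of read counts of Tjp1, Cgn, F11r and Tjp3 to those of Ocln in the same culture (vertical axis) by group; points are cultures, the dash is the mean and the bar the SD over 4 cultures. For the first 3 genes every culture of the MYO5B groups lay above the highest control.

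Compound-1 was compared with vehicle in MYO5BΔIEC enteroids directly. None of the 9 members passed the test by edgeR, and neither did any other gene (0% of 18037 tested, with 1355 genes at an unadjusted p under 0.05 and 91 genes called by DESeq2, none of them a member). The members' fold changes were all above 0, from 0.10 for Pard3 to 0.45 for Crb3 (SE 0.22, interval -0.03 to 0.93), with a median of 0.28 beside 0.00 over all genes. At an unadjusted p under 0.05, Ocln was the 1 of 9 members that differed. Compound-1 culture 3 had the highest or second highest level of all 9 members within its group. The 95% interval of the difference ran from -0.19 to 0.65 for Tjp1, from -0.16 to 0.90 for Cgn and from -0.11 to 0.66 for F11r, so neither a further rise nor a small fall of these genes was resolved with 4 cultures a group.

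The models were also compared with each other. Between MYO5B(G519R) and MYO5BΔIEC no member passed the edgeR test, and 1 gene of all tested did (0.00557%, with 772 genes at an unadjusted p under 0.05 and 4 called by DESeq2, no member among them). The members' log2 fold changes ran from -0.24 for Tjp1 (SE 0.16, interval -0.60 to 0.12) to 0.18 for Tjp3 (interval -0.16 to 0.51), with a median of -0.07 beside -0.01 over all genes.

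The paralogs of the members were followed next. Cgnl1, which encodes paracingulin, rose from a mean of 16.5 CPM (SD 2.93, n = 4) in controls to 33.7 CPM (SD 8.29) in MYO5BΔIEC and 38.3 CPM (SD 11.8) in MYO5B(G519R), by 1.04 (SE 0.21, adjusted p = 0.00542 by edgeR) and 1.22 (SE 0.23, adjusted p = 0.00515) on the log2 scale. The tricellulin relatives had smaller fold changes, with Marveld3 at 0.36 (SE 0.14, adjusted p = 0.0689) and 0.31 (SE 0.11, adjusted p = 0.0653) and Marveld1 at 0.27 (SE 0.26) and 0.51 (SE 0.27), adjusted p = 0.481 and 0.19. Without control 1, Marveld1 passed in both models at 0.58 (adjusted p = 0.036) and 0.85 (adjusted p = 0.00528), and Marveld3 in MYO5B(G519R) at 0.32 (adjusted p = 0.0257). Marveld3 also passed in MYO5BΔIEC without culture 3 of that group (adjusted p = 0.0322). Of the other junctional adhesion molecules, Jam2 reached at most 1.23 CPM in any culture and was at 0.35 (SE 0.72) and 0.21 (SE 0.68), and Jam3 did not pass the filter. Pard3b, the paralog of Pard3, was at -0.11 (SE 0.27) and -0.06 (SE 0.26), and Prkcz, the atypical protein kinase C zeta gene, at 0.27 (SE 0.12, adjusted p = 0.123) and 0.09 (SE 0.11, adjusted p = 0.586). Without control 1, Prkcz passed in MYO5BΔIEC at 0.32 (adjusted p = 0.043) and Pard3b in MYO5B(G519R) at 0.35 (adjusted p = 0.0244). With Compound-1 against control, Pard3b was at 0.16 (adjusted p = 0.7 by edgeR), and without control 1 it passed at 0.56 (adjusted p = 0.0194).

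Ratios within a library asked whether a member moved against its paralog, in 10 exact permutation tests of 4 against 4 cultures, for which 0.0286 is the smallest p possible. The log2 ratio of Pard3 to Pard3b was 1.24, 1.64, 1.62 and 1.72 in controls. The 4 MYO5BΔIEC cultures gave 1.94, 2.27, 2.06 and 2.16, and those of MYO5B(G519R) gave 1.84, 1.99, 2.02 and 1.88. It was higher in all 4 cultures of each model than in any control, by 0.56 and 0.38 on average (exact permutation p = 0.0286, two-sided, adjusted p = 0.143 for both). The ratio of Tjp3 to Tjp1 was lower by 0.68 in MYO5BΔIEC (exact p = 0.0857, adjusted p = 0.214) with overlapping groups. The other ratios also overlapped, and none of the 10 passed after adjustment. For Cgn against Cgnl1 the difference was 0.01 in the first model (exact p = 0.971) and -0.22 in the second (exact p = 0.4).

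The wider junction and polarity network was read as lists, which were chosen with earlier results of these data known. Of 26 membrane and plaque partners of the tight junction, 23 were tested, of which 13 (56.5%) rose and 0 fell in MYO5BΔIEC and 10 (43.5%) rose and 0 fell in MYO5B(G519R), where 13.5% and 13.1% of all genes rose, with median log2 fold changes of 0.66 and 0.59 beside -0.01 and -0.05 over all genes tested. All 10 that rose in MYO5B(G519R) were among the 13. The first count was 8 without control 2 or 4, and the second 6 without control 3, fits for which the share of all genes is not given here. Without control 1 both counts were 18 (78.3%), when 21.2% and 24.0% of all genes rose. Amotl1, an angiomotin-type scaffold, rose by 2.04 (SE 0.27, adjusted p = 0.00155 by edgeR) and 2.13 (SE 0.25, adjusted p = 0.00185), from 2.0 CPM (SD 0.376, n = 4) to 8.18 CPM (SD 2.62) and 8.78 CPM (SD 2.72). Ildr1, an angulin that recruits tricellulin, rose by 1.16 (SE 0.26, adjusted p = 0.00968) and 0.91 (SE 0.3, adjusted p = 0.0485), the latter a call lost without any one library other than control 1.

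Of 18 PAR complex partners, all tested, 5 rose and 0 fell in MYO5BΔIEC and 5 rose and 1 fell in MYO5B(G519R), with medians of 0.22 and 0.12. The share that rose was 27.8% in both, against the same 13.5% and 13.1% of all genes. Without control 1 the number that rose in MYO5B(G519R) was 9, when 24.0% of all genes rose. Pard6b, which encodes the PAR-6 adaptor of the kinase, was at 94.2, 43.6, 45.2 and 38.1 CPM in controls and at 135, 136, 140.0 and 141 CPM in MYO5BΔIEC cultures. Control 1 was again high, yet below all MYO5BΔIEC cultures. Pard6b rose by 1.33 (SE 0.26, adjusted p = 0.00496 by edgeR), and by 0.99 (SE 0.28, adjusted p = 0.0256) in MYO5B(G519R), a call lost without control 2, 3 or 4 or MYO5B(G519R) culture 2 or 3. Wwc1, which encodes KIBRA, rose by 1.16 (SE 0.15) and 0.93 (SE 0.16), and Mark2, a PAR-1 kinase of the basolateral side, by 0.93 (SE 0.14) and 0.99 (SE 0.11). Cdc42, the small GTPase that activates the complex, was the 1 gene that fell, by 0.35 (SE 0.12, adjusted p = 0.0485) in MYO5B(G519R), a call lost without any one library other than control 1, and was at -0.23 (SE 0.15, adjusted p = 0.279) in MYO5BΔIEC.

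Of 11 Crumbs complex partners, 8 were tested, and 2 rose in each model, Patj and Epb41l4b, while 1 fell in MYO5B(G519R), with a median of 0.18 in both. The share that rose was 25.0% in each, against 13.5% and 13.1% of all genes. Patj, a multi-PDZ scaffold of the complex, rose by 0.96 (SE 0.13, adjusted p = 0.00148 by edgeR) and 0.77 (SE 0.13, adjusted p = 0.00352). Mpp5, which encodes PALS1 and binds Crumbs directly, was at 0.15 (SE 0.19, adjusted p = 0.595) and -0.22 (SE 0.15, adjusted p = 0.299). The other Crumbs genes, Crb1 and Crb2, reached at most 0.233 CPM in any culture and were not tested. The gene that fell was Lin7c, by 0.46 (SE 0.1, adjusted p = 0.00897), named after its value was seen. In MYO5BΔIEC Lin7c was at -0.39 (SE 0.14, adjusted p = 0.0628 by edgeR), with every culture below the controls. Without control 1 it passed there (-0.39, adjusted p = 0.037).

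Of 13 genes of the Scribble complex and basolateral polarity, 11 were tested, and 4 rose and 0 fell in each model, with medians of 0.53 and 0.56 beside -0.01 and -0.05 over all genes. The share that rose was 36.4% in each, against 13.5% and 13.1% of all genes. Dlg5 rose by 1.14 (SE 0.22) and 1.13 (SE 0.22), and Llgl2, a lethal giant larvae gene, by 0.88 (SE 0.12) and 0.84 (SE 0.11). Dlg4 rose by 1.45 (SE 0.44, adjusted p = 0.0335 by edgeR) in MYO5BΔIEC from at most 1.26 CPM in the controls, a call lost without control 2 or 3 or MYO5BΔIEC culture 2, 3 or 4. Leaving out control 1 raised the count to 8 in MYO5BΔIEC and 7 in MYO5B(G519R), when 21.2% and 24.0% of all genes rose, and leaving out control 2, control 3 or MYO5BΔIEC culture 2 lowered it to 2 in MYO5BΔIEC. For the fits that lowered it, the share of all genes is not given here.

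**Figure D4:**
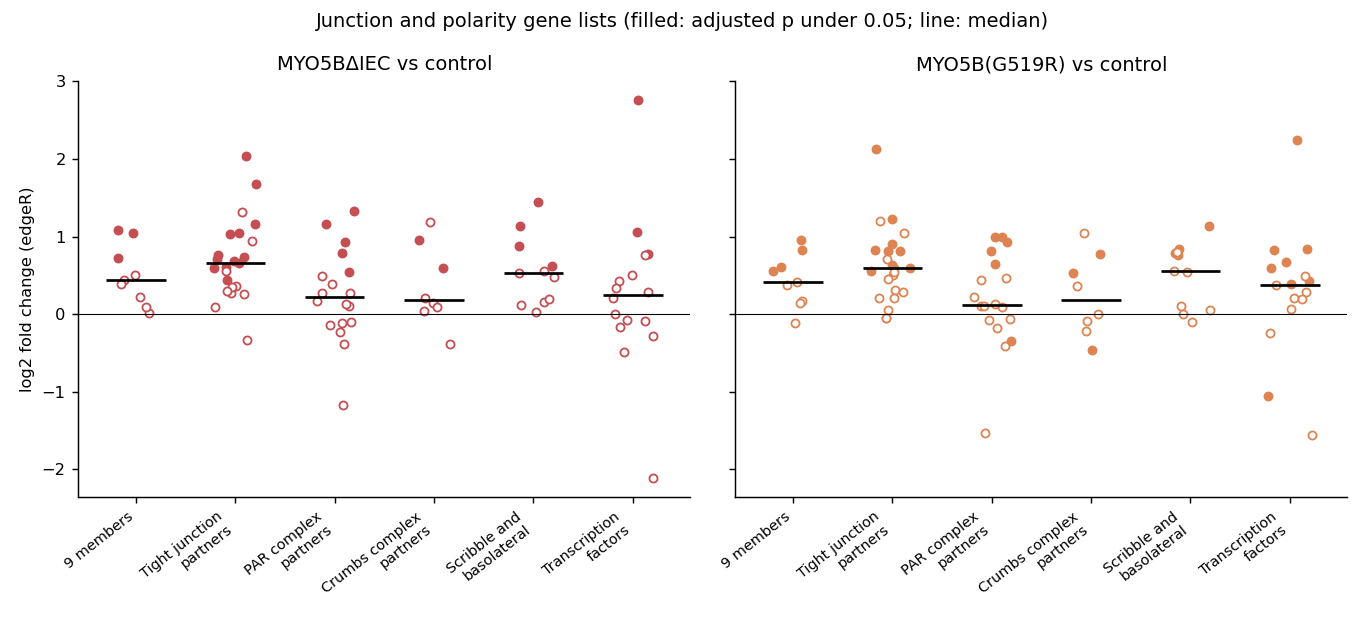
Log2 fold change by edgeR (vertical axis) of the 9 genes and of 5 lists of partner genes in each MYO5B model against control; each point is a gene, filled where its adjusted p was under 0.05, and the line is the median. The median of tight junction partners was 0.66 and 0.59, and that of PAR complex partners 0.22 and 0.12.

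Of 21 transcription factors known to act on epithelial junction genes, 16 were tested, and 3 rose and 0 fell in MYO5BΔIEC and 7 rose and 1 fell in MYO5B(G519R), with medians of 0.25 and 0.38. The share that rose was 18.8% in MYO5BΔIEC, near the 13.5% of all genes, and 43.8% in MYO5B(G519R), against 13.1%. Both counts moved with single libraries. Without control 1, 7 rose in MYO5BΔIEC and 10 in MYO5B(G519R), when 21.2% and 24.0% of all genes rose. In MYO5B(G519R) 2 rose without any one of controls 2, 3 and 4 or culture 2, 3 without culture 1 and 4 without culture 3. The share of all genes in these last fits is not given here. Grhl3, a Grainyhead-like factor of barrier epithelia, was at 1.57, 1.33, 1.03 and 1.63 CPM in controls and at 4.61, 10.4, 11 and 11.5 CPM in MYO5BΔIEC cultures. It was 2.9, 3.05, 9.65 and 10.7 CPM in MYO5B(G519R), split between cultures 1 and 2 and cultures 3 and 4, and 6.77, 10.1, 52.1 and 23.7 CPM with Compound-1. No MYO5B culture overlapped the controls. Grhl3 rose by 2.76 (SE 0.32, adjusted p = 0.0014 by edgeR), 2.24 (SE 0.46, adjusted p = 0.0075) and 4.06 (SE 0.61, adjusted p = 0.00398) on the log2 scale. Klf4, a factor of differentiated epithelium, rose by 1.06 (SE 0.2, adjusted p = 0.00477) and 0.84 (SE 0.21, adjusted p = 0.0157) in the models. Of the repressors usually read with the E-box, Snai1, Zeb1, Zeb2, Twist1 and Twist2 did not pass the filter on low counts, and Snai2 and Snai3 did. Snai2 was at -2.11 (SE 0.88, adjusted p = 0.0959 by edgeR) in MYO5BΔIEC and -1.56 (SE 0.61, adjusted p = 0.0854) in MYO5B(G519R), and fell by 2.82 (SE 0.79, adjusted p = 0.0228) with Compound-1. Each of these groups overlapped the controls for Snai2, including the Compound-1 cultures, and its level is not given here. Snai3 was at 0.76 (SE 0.29, adjusted p = 0.0743) in MYO5BΔIEC, rose by 0.83 (SE 0.23, adjusted p = 0.0253) in MYO5B(G519R) and was at 0.40 (SE 0.23, adjusted p = 0.228) with Compound-1. Snai2 and Snai3 were named after their values were seen.

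Over the 16 cultures, the genes whose log2 CPM followed a member most closely were searched among 9651 genes, as a description of cultures that share their groups. For Tjp1 these were Etnk1 (Pearson's r = 0.995, n = 16), Prkx (0.989) and Rapgef2 (0.985), and for Cgn they were Fam214b (0.989), Zswim8 (0.988) and Zfp710 (0.98). F11r was followed by Abcc4 (0.975), Krt8 (0.973) and Efnb2 (0.972), Pard3 by Bcl3 (0.979), Cdh1 (0.979) and Ptpn11 (0.976), and Prkci by 9530068E07Rik (0.971), Ubqln2 (0.967) and Yy1 (0.966). Tjp3 was followed by Mier2 (0.971), Cc2d1a (0.959) and Spire2 (0.958), and Crb3 by Cdc42ep5 (0.97), Atp6v0b (0.952) and Arpc1b (0.936). Ocln and Marveld2 had looser companions, Rnh1 (0.939), Slc22a5 (0.934) and Sytl2 (0.92) for the former and Crtc2 (0.895), Sgsm3 (0.889) and Brap (0.877) for the latter. Among the members themselves, r was 0.91 for Pard3 with Prkci and with F11r, 0.88 for Tjp1 with F11r and with Pard3, 0.49 for Tjp1 with Ocln and 0.15 for Prkci with Crb3.

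Markers of cell types moved between the groups as well. The counts of markers called stand beside 13.5% of all genes that rose and 13.8% that fell in MYO5BΔIEC, and 13.1% and 13.7% in MYO5B(G519R). Without control 1 these shares were 21.2% and 20.8%, and 24.0% and 22.1%, and in the Compound-1 cultures 22.9% and 19.2%. The 8 markers of intestinal epithelium, of which Krt8 was the most abundant, summed to a mean of 7139 CPM (SD 680.4, n = 4) in controls, 10557 CPM (SD 333) in MYO5BΔIEC, 9947 CPM (SD 1192) in MYO5B(G519R) and 13655 CPM (SD 2546) with Compound-1, and 5 of 8 rose in MYO5BΔIEC and 4 of 8 in MYO5B(G519R). Epcam among them was at -0.24 (SE 0.15, edgeR adjusted p = 0.275) and -0.13 (SE 0.15, adjusted p = 0.538). The 5 stem cell markers, led by Olfm4, summed to 4304 CPM (SD 1654) in controls against 1367, 1912 and 1169 CPM in the other groups. Of the 5, only Olfm4 passed the edgeR test, and it fell by 2.26 (SE 0.51) and 1.63 (SE 0.41) in the models, and the list's median fold change was 0.02 and 0.30. Lgr5 was at 0.16 and 0.30, Axin2 at 0.19 and 0.49 and Smoc2 at 0.02 and 0.30, none past the threshold. Ascl2 went the other way, at -0.38 (adjusted p = 0.324 by edgeR) and -0.05 (adjusted p = 0.864), and did not pass either. Without control 1, Lgr5 passed in both models at 0.45 (adjusted p = 0.0256 by edgeR) and 0.63 (adjusted p = 0.0164), and Axin2 (0.38, adjusted p = 0.0212) and Smoc2 (0.40, adjusted p = 0.0462) in MYO5B(G519R). The 6 proliferation markers, led by Top2a, summed to 1754 CPM (SD 181) in controls against 1195, 1501 and 1146 CPM, and 4 of 6 fell in MYO5BΔIEC and 3 of 6 in MYO5B(G519R). The median of these markers was -0.63 and -0.33 in the models. In MYO5B(G519R), Mki67 (0.20, adjusted p = 0.221 by edgeR) and Mcm5 (0.23, adjusted p = 0.264) lay above 0 without passing. The 10 enterocyte markers, led by Sis, summed to 11489 CPM (SD 5568) in controls and 9681, 7166 and 6206 CPM in the other groups. Its members went both ways, with a median of 0.27 and -0.23 in the models. Anpep rose by 1.58 (SE 0.18) and 1.23 (SE 0.18) and Alpi by 1.23 (SE 0.3) in MYO5BΔIEC, while Sis was at -0.42 (SE 0.4) in MYO5BΔIEC and fell by 1.10 (SE 0.36) in MYO5B(G519R). The lowest of the list were the fatty acid binding protein genes Fabp1, at -1.56 (SE 0.65, adjusted p = 0.0996 by edgeR) and -1.62 (SE 0.64, adjusted p = 0.087), and Fabp2, at -1.33 (SE 0.54, adjusted p = 0.0908) and -1.54 (SE 0.53, adjusted p = 0.0569). With Compound-1, 4 of the 10 fell against control, Fabp1 and Fabp2 among them, and 2 rose. Without control 1, 2 of 10 enterocyte markers rose and 2 fell in MYO5BΔIEC, 1 rose and 5 fell in MYO5B(G519R), and Fabp1 (-1.94 and -1.97) and Fabp2 (-1.70 and -1.88) fell in both. These and the other single markers were named after their values were seen. The part of cell type makeup in the members' results was not tested.

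Goblet markers (7 genes, led by Fcgbp) summed to 1539 CPM in controls and 2104, 2103 and 3592 CPM in the MYO5BΔIEC, MYO5B(G519R) and Compound-1 groups, and Compound-1 culture 3, in which several members were highest, reached 5936 CPM. Fcgbp and Clca1 rose in all 3 groups, and Agr2 fell by 0.96, 0.82 and 0.64 in the same order. Tff3 fell by 0.60 in MYO5B(G519R), and without control 1 by 0.69 (adjusted p = 0.00193 by edgeR) in MYO5BΔIEC, where the list's median was -0.03. Muc2, the main secreted mucin, was at 0.66 (SE 0.44, adjusted p = 0.3) and 0.38 (SE 0.47, adjusted p = 0.591) in the models, and without control 1 it rose by 1.49 (adjusted p = 4.92e-05) and 1.25 (adjusted p = 0.000378). The 6 Paneth markers, led by Lyz1, summed to 4834 CPM in controls and 3141, 2799 and 3177 CPM, and 1 of 6, Lyz1, fell in each model. Control 1 held 2478 CPM of Paneth markers and controls 2 to 4 held 5124 to 6144 CPM. Without control 1, 4 of the 6 Paneth markers fell in MYO5BΔIEC, all 6 in MYO5B(G519R) and 4 with Compound-1. The 7 enteroendocrine markers, led by Chgb, summed to 826 CPM and 1096, 818 and 1078 CPM, and the 6 tuft markers, led by Avil, to 32.9 CPM and 21.1, 22.1 and 20.3 CPM. The tuft sum was 64.9 CPM in control 1 and 19.7, 21.7 and 25.4 CPM in controls 2 to 4, which lay within the range of the other groups. Of the 4 tuft markers tested, 1, 1 and 3 fell and 0 rose in the MYO5BΔIEC, MYO5B(G519R) and Compound-1 groups. With Compound-1, 13.7% of all genes fell. The numbers that fell were 1, 0 and 2 without control 1. Pou2f3 fell by 1.04 (adjusted p = 0.0166 by edgeR), 0.76 (adjusted p = 0.0474) and 1.48 (adjusted p = 0.00945) in the 3 groups. Cells outside the epithelium left few reads. The 7 fibroblast markers, led by Pdgfrb, summed to under 2 CPM in every library, with Col3a1, Dcn and Lum at 0 in all 16, the 6 endothelial markers, led by Vwf, to at most 2.64 CPM, and the 8 immune markers, led by Cd68, to at most 11.6 CPM, with Adgre1 at 0 in all 16. Single genes of these lists still passed the edgeR test at these low levels. Cd68 rose by 1.09 (SE 0.33, adjusted p = 0.0332) in MYO5BΔIEC, from 2.95 to 6.28 CPM on average, and Col1a1 (2.39, SE 0.79, adjusted p = 0.0476) and Vwf (1.12, SE 0.32, adjusted p = 0.0276) rose in MYO5B(G519R), Vwf from 0.603 to 1.32 CPM. Their part in the members' results was not tested.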

How the data were processed

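The authors deposited raw counts per gene and FPKM for 16 poly-A mRNA libraries; their processing notes name STAR 2.5, TopHat and HTSeq 0.6.1 with GRCm38 (mm10), and strand and multi-mapping settings are not given in the sources used here. Members and lists were chosen with earlier results of these data known. Counts were tested with edgeR 4.0.16 (quasi-likelihood F test, R 4.3.3), groups 2 at a time, in genes that reached 10 counts in 2 or more of the 8 libraries, with Benjamini-Hochberg adjustment over all genes tested; the SE is the log2 fold change divided by the root of F. The steps were tested on simulated counts. Named genes were the members, their paralogs and direct partners, up to 3 genes per list with the largest change past the threshold at a mean of at least 1 CPM without overlap, and the 3 genes correlating best with each member. Alternatives were DESeq2 1.42.0, its size factors, other filters, one fit of all groups, a replicate block, removal of the length trend, mitochondrial genes left out of library sizes, limma 3.58.1 on log2(FPKM + 1) and leaving out each library. Promoters are RefSeq (GRCm38.p6); all 9 members had the same gene start and end in GENCODE M21. Results for 1 paralog and 1 marker gene are not reported here.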

Additional observations from a re-analysis of the deposited data

Results flagged for a closer look

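Each member and each paralog ratio reported here was examined within each group of 4 cultures for 1 culture whose gap to the nearest other, as a share of the group's range, was above Dixon's 95% critical value. Chance flags about 1 in 20 groups, and 6 of 52 groups were flagged. Control 1 was far above the other controls for Marveld2 (38.1 CPM), F11r (169 CPM) and Pard3 (69.3 CPM), and far below them in the log2 ratio of Tjp3 to Tjp1 (0.14). MYO5B(G519R) culture 4 was far above its group for Marveld2 (46.0 CPM), and MYO5BΔIEC culture 1 far below its group for F11r (188 CPM).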

How the results depend on the processing

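Tjp1 and Cgn kept their rise and their call in both models, and F11r in MYO5BΔIEC, under every alternative run. The number of members called in MYO5BΔIEC against control was 5 with DESeq2 and 5 with all 4 groups in one fit, all higher, where 16.6% and 15.1% of all genes tested rose against 13.5%, and 3 to 6 when 1 library was left out. In MYO5B(G519R) these alternatives called 4 and 5 members, where 17.7% and 12.5% of all genes rose against 13.1%, and with Compound-1 against control 7 and 9, where 18.5% and 18.7% of all genes rose against 15.7%; in the single fit Marveld2 (adjusted p = 0.0488 by edgeR) and Crb3 (adjusted p = 0.0498) passed there. Without 1 library each it was 3 to 6 in MYO5B(G519R), 4 to 8 with Compound-1 against control, and 0 in both other comparisons, while all genes called ranged from 2963 to 7474, 2880 to 8146 and 2957 to 7459 in the 3 comparisons with control. Higher genes per list without 1 library ranged in MYO5BΔIEC from 8 to 18 (tight junction), 4 to 6 (PAR), 2 to 3 (Crumbs), 2 to 8 (Scribble) and 2 to 7 (transcription factors), and in MYO5B(G519R) from 6 to 18, 4 to 9, 2 to 3, 4 to 7 and 2 to 10. For these fits the share of all genes that rose is given here only without control 1. It was 21.2% in MYO5BΔIEC, 24.0% in MYO5B(G519R) and 22.9% with Compound-1. The other counts without 1 library have no background to be read against. Transcription factors in MYO5BΔIEC numbered 5 with DESeq2 and 6 with all groups in one fit. All genes called between Compound-1 and vehicle numbered 12 without a filter.

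Same-numbered cultures did not deviate together against control (r from -0.225 to 0.264). For Compound-1 against vehicle in MYO5BΔIEC, r was 0.0756, -0.133, 0.0956 and -0.157 for numbers 1 to 4. Between the models r was 0.143, 0.0858, 0.513 and 0.599 for numbers 1 to 4, over 0.1 in 3 of 4, and a culture numbered 2 correlated better with a different number (0.137), so the numbers were not taken to pair the cultures. Tjp1, Ocln and F11r were lower in every MYO5B(G519R) culture than in the MYO5BΔIEC culture of the same number, and the other members went both ways. With the replicate block, 3, 4, 7, 0 and 0 members were called in the 5 comparisons, and transcription factors in MYO5B(G519R) numbered 4. All genes called numbered 3647 and 3691 in the models and 4401 with Compound-1 against control. Of these, 1949 of 17951 genes tested rose in MYO5BΔIEC, 1969 of 17829 in MYO5B(G519R) and 2377 of 17937 with Compound-1. Without the block 2427, 2341 and 2820 rose. Pard3b in MYO5B(G519R) turned to 0.04 with the block.

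Signs turned for fold changes that had not passed the test. In MYO5BΔIEC, Ocln was at -0.023 and Mpp5 at -0.07 with the length trend removed; without 1 library Ocln ranged from -0.025 to 0.08, Crb3 from -0.07 to 0.17, Jam2 from -0.023 to 0.80, Pard3b from -0.24 to 0.27 and Mpp5 from -0.08 to 0.25. In MYO5B(G519R), Prkcz was at -0.031 with the length trend removed and Pard3b at 0.016 on log2(FPKM + 1); without 1 library Jam2 ranged from -0.14 to 0.65 and Pard3b from -0.20 to 0.35, the last without control 1 (edgeR adjusted p = 0.0244). Between the models, without 1 library, Cgn ranged from -0.17 to 0.0017 and Crb3 from -0.025 to 0.13. The log2 ratio of Cgn to Cgnl1 turned in MYO5BΔIEC (-0.17 to 0.15) and in MYO5B(G519R) (0.033 from FPKM). Prkci in MYO5B(G519R) was 132.5% of control in CPM. The cause was not tested.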
